A study of Drosophila eugracilis and Drosophila pseudoobscura and Drosophila bifasciata with 4 samples.

Results

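Ovary polyA RNA of 3 Drosophila species was searched for short stretches of the genome from which both strands were represented. Each contig was cut into tiles of 500 nt, and every alignment line was assigned to the tile that held its 5′ end on the RNA strand. A tile was a member when it held at least 40 lines and the minor strand, the one with fewer lines, made up 20% to 50% of them. D. pseudoobscura had 1092 members, D. eugracilis 424 and D. bifasciata 797, together 2313 of 981685 tiles. Tiles with at least 40 lines numbered 39268, 28402 and 35914, so that 2.78%, 1.49% and 2.22% of them were members. Members were thus chosen by their strand counts, which are given here as a description.

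The flies were wild-type females kept on standard food and labelled as 2 to 7 days old, whereas the extraction protocol gives 3 to 7 days. The strains were labelled MV2-25 (D. pseudoobscura), SHL12 (D. eugracilis) and "Jozankei, Hokaidou" (D. bifasciata). Each species had 1 directional polyA library, which keeps the strand of the RNA, and D. eugracilis had a further library, QuantSeq, whose reads are primed from the poly-A tail and lie close to transcript 3′ ends. With 1 library in each of the 4 groups no difference was tested, and species, library and preparation cannot be told apart. Intervals are exact 95% binomial (Clopper-Pearson) intervals that cover counting error only. The polyA libraries held 14159668, 13099511 and 13983030 lines in the order above and QuantSeq held 6256158. The gene table of D. eugracilis names nearly all genes by LOC numbers, so none of 20 marker genes of ovary, muscle and testis could be looked up and the tissue was not checked.

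Neighbouring genes on opposite strands can bring both strands into a short window in several ways. In a convergent pair the genes run towards each other, and their 3′ untranslated regions meet or overlap. In a divergent pair the genes run away from a shared stretch, which often holds the promoters of both. A transcript may also lie nested inside, or antisense to, a longer unit. In the Drosophila germline, some piRNA clusters, the loci that give rise to the small RNAs directed against transposons, are read from both strands over many kilobases.

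Members were modest in level. The median member of D. pseudoobscura held 106 lines, that of D. eugracilis 104 and that of D. bifasciata 132, against 173, 131 and 169 in all tiles with at least 40 lines. Members held 284878, 66260 and 161433 lines, or 2.01%, 0.506% and 1.15% of the libraries. The median minor share was 28.7%, 34.2% and 33.0%, and 230, 132 and 225 members had a minor share of 40% or more. Near the limits of the rule, 20, 6 and 12 members held exactly 40 lines, while 8, 4 and 10 tiles with a sufficient minor share fell out at 39 lines. A further 103, 21 and 60 members had a minor share of 20% to 21%, and 86, 21 and 34 tiles lay between 19% and 20% outside it.

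Most members stood alone. Of 1057 uninterrupted stretches in D. pseudoobscura 1028 were a single tile, as were 405 of 414 in D. eugracilis and 727 of 755 in D. bifasciata. The longest stretches covered 4, 3 and 5 tiles.

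The layout of each member was read from the 2 adjoining tiles. A strand counted as present in an adjoining tile with at least 10 lines and at least 5% of the lines there. A member was called convergent when plus lines were present only to its left and minus lines only to its right, divergent when the reverse held, nested when 1 strand was present on both sides and the other on neither, staggered when 1 strand was on both sides and the other on 1 side, and through when both strands were on both sides. The remainder had a strand on 1 side only in some other arrangement (one-sided) or none on either side (isolated).

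Divergent and convergent layouts made up most members in D. eugracilis and D. bifasciata and a minority in D. pseudoobscura. Divergent members numbered 164 in D. eugracilis (38.7%, interval 34.0 to 43.5), 314 in D. bifasciata (39.4%, 36.0 to 42.9) and 182 in D. pseudoobscura (16.7%, 14.5 to 19.0). Convergent members numbered 154 (36.3%, 31.7 to 41.1), 203 (25.5%, 22.5 to 28.6) and 161 (14.7%, 12.7 to 17.0) in that order. D. pseudoobscura instead held 222 nested members (20.3%, 18.0 to 22.8) and 247 staggered ones (22.6%, 20.2 to 25.2). It also held 213 one-sided members (19.5%, 17.2 to 22.0), against 36 in D. eugracilis (8.49%) and 92 in D. bifasciata (11.5%). Nested members were 27 in D. eugracilis (6.37%) and 65 in D. bifasciata (8.16%), and staggered members 33 and 80. The convergent share of D. pseudoobscura was 26.5% with identical alignments counted once and 7.93% with at least 100 lines per tile. Through members were 4 in D. eugracilis, 34 in D. bifasciata and 47 in D. pseudoobscura.

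**Figure D1:**
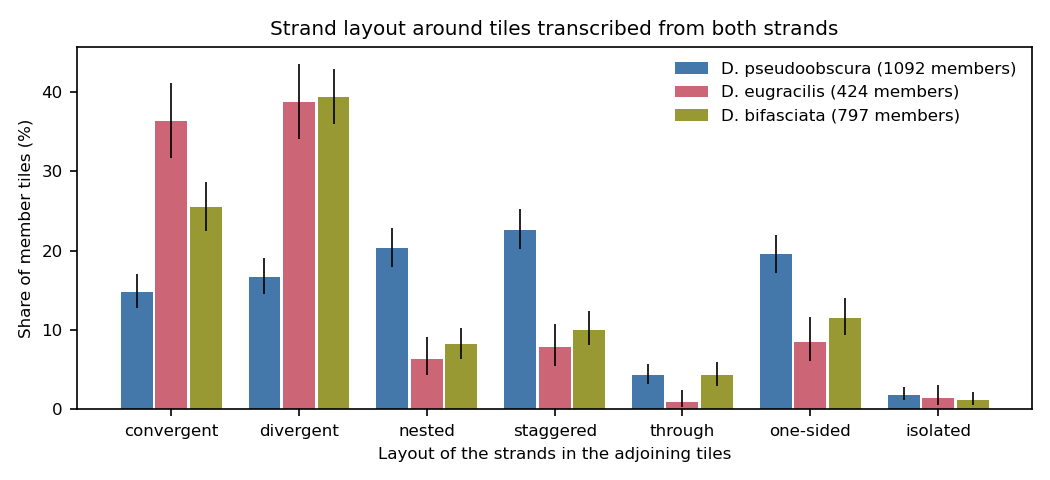
Share of member tiles (vertical axis, %) in each layout of the adjoining tiles (horizontal axis) for the polyA library of each species, with exact 95% intervals as bars. Convergent and divergent layouts together lead in D. eugracilis and D. bifasciata, while nested and staggered layouts are the most frequent in D. pseudoobscura (20.3% and 22.6%).

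Around convergent and divergent members the strands stayed apart over about 1 kb on either side and less clearly further out. The adjoining tiles set the layout, but tiles further out did not. One kilobase to the left of convergent members, plus lines outnumbered minus lines at 89.0% of members in D. eugracilis and at 85.2% in D. bifasciata. At the same distance to the right, plus lines led at only 7.14% and 7.39%. At 2 kb, plus lines led at 52.6% and 56.2% to the left and at 29.2% and 30.5% to the right. In D. eugracilis the median count of plus lines was 179 at 1 kb to the left, 43 in the member itself and 0 at 1 kb to the right. Divergent members were the mirror image, with a median of 137 minus lines at 1 kb to the left, 62 in the member and 0.5 at 1 kb to the right. Beyond 2 kb the medians on both strands fell to 2.5 lines or fewer in D. eugracilis.

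**Figure D2:**
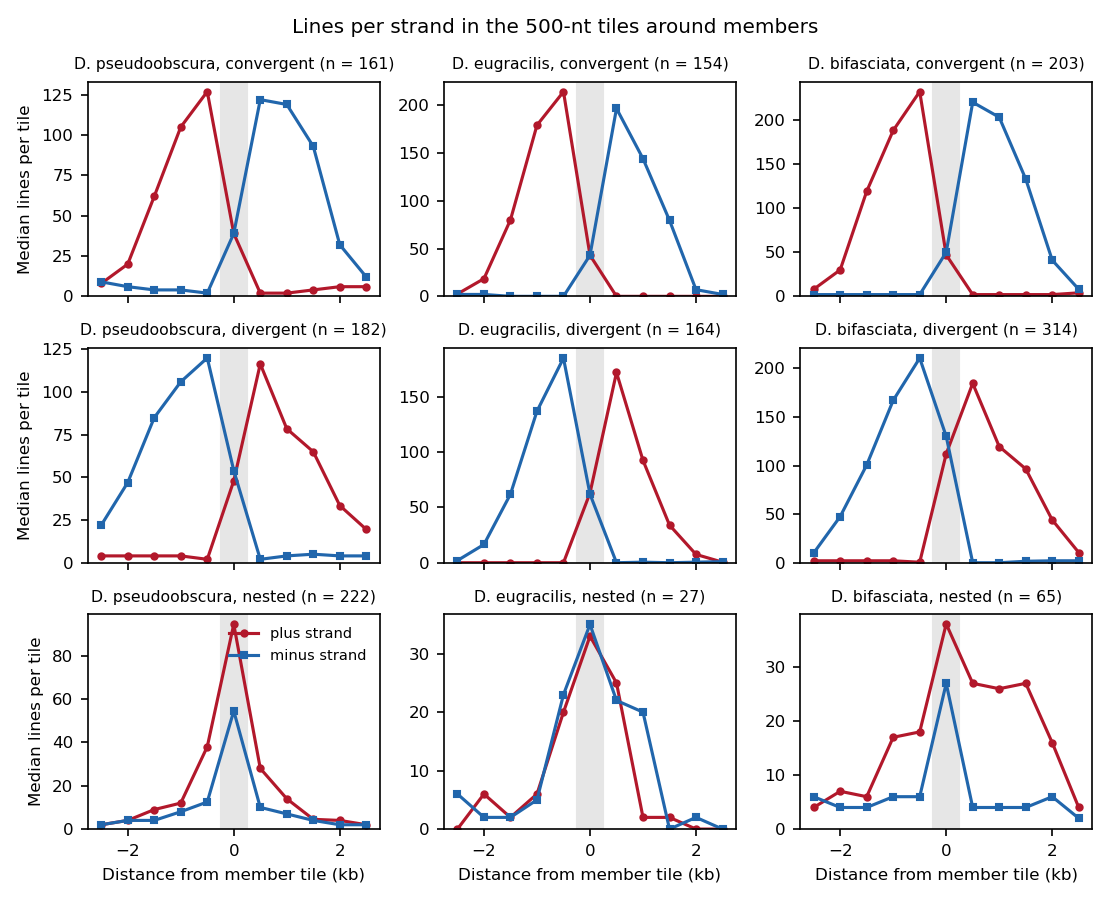
Median number of lines per 500-nt tile (vertical axis) on the plus (red) and minus (blue) strand against distance from the member tile in kb (horizontal axis, member shaded), for convergent, divergent and nested members of each species. In convergent members the plus lines lie to the left and the minus lines to the right, divergent members show the reverse, and in nested members of D. pseudoobscura both strands peak in the member.

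Positions of 5′ ends inside the members separated the layouts further. In divergent members the 5′ ends of the 2 strands formed blocks that did not interleave, the plus block lying to the right, in 155 of 164 members of D. eugracilis, 282 of 314 of D. bifasciata and 145 of 182 of D. pseudoobscura (blocks taken from the 5th to the 95th percentile). The median gap between the blocks was 231 nt, 130 nt and 111 nt. In convergent members the far ends of the lines reached past each other by a median of 78.5 nt in D. eugracilis, 152 nt in D. bifasciata and 202 nt in D. pseudoobscura.

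Whether both strands covered the same bases was asked of the aligned blocks. A base was counted as shared when each strand had at least 5 alignments and at least 5% of the coverage. In D. eugracilis 149 of 424 members had a shared base (35.1%, 30.6 to 39.9), in D. bifasciata 400 of 797 (50.2%, 46.7 to 53.7) and in D. pseudoobscura 772 of 1092 (70.7%, 67.9 to 73.4). Among all tiles with at least 40 lines the shares were 5.62%, 20.2% and 38.9%. The minor-strand lines that chose the members also enter this measure, so the distance from the background is a description. With identical alignments counted once, the shares were 26.0%, 30.5% and 40.3% in the same order.

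Divergent members rarely shared bases, with 6 of 164 in D. eugracilis (3.66%), 56 of 314 in D. bifasciata (17.8%) and 27 of 182 in D. pseudoobscura (14.8%). Convergent members did so in 76 of 154 (49.4%), 134 of 203 (66.0%) and 100 of 161 cases (62.1%). Where a convergent member had any shared base, the median stretch was 65.5 nt, 88.5 nt and 57 nt. Nested members had shared bases in 18 of 27, 52 of 65 and 212 of 222 cases, with medians of 79 nt, 88.5 nt and 80 nt among those. In many divergent members the 2 strands therefore lay side by side in the tile without meeting.

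Splicing, which the rule did not use, differed between the layouts. An alignment with more than 1 block was counted as spliced. Over all members, the spliced share was 22.5% on the major and 18.2% on the minor strand in D. eugracilis, 23.1% and 16.1% in D. bifasciata, and 17.0% and 7.31% in D. pseudoobscura. In tiles with at least 40 lines and a minor strand below 20%, the major strand had 23.8%, 18.9% and 16.0% in that order. The minor strand of those tiles had 16.6%, 14.1% and 7.04%, so a lower share on the minor strand was not particular to members. The D. pseudoobscura values, above all that of the major strand, depended on 1 tile, described further on. Without it they were 11.4% on the major and 8.80% on the minor strand, a setting chosen after the data had been seen. Strand order turned in D. eugracilis with the grid shifted by 250 nt (21.9% major and 23.3% minor) and in D. pseudoobscura with identical alignments counted once (14.6% and 16.8%).

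Over the pooled lines of divergent members both strands held spliced lines. The major and minor strand had 32.2% and 28.4% spliced lines in D. eugracilis, 31.2% and 21.0% in D. bifasciata and 26.5% and 27.7% in D. pseudoobscura. A spliced line was found on the major strand in 98 of 164, 203 of 314 and 113 of 182 of them and on the minor strand in 87, 163 and 103. Convergent members were nearly free of spliced lines on both strands, with 7.73% and 3.09%, 3.11% and 4.72%, and 2.27% and 3.16% in the same order. In nested members of D. pseudoobscura the strand that passed through the tile was spliced in 21.8% of lines and the inner strand in 3.58%, but much of this gap came from the tile with most lines, and without it the values were 8.95% and 5.56%. The order was the opposite in the other species, where the inner strand had 39.0% and the passing strand 17.8% in D. eugracilis, against 10.5% and 7.44% in D. bifasciata. In D. eugracilis 43 of the 267 spliced inner lines came from 1 tile, NW_024573052.1:1551501-1552000. In D. bifasciata 4 of 10 nested members with a junction had one with at least 20% of its lines on the minor strand. A single position held at least 50% of the minor-strand 5′ ends in 27 of 65 nested members there and in 6 of 27 in D. eugracilis. In D. pseudoobscura the passing strand was the major one in 207 of the 222 nested members, and 184 of the 222 had no spliced line on the inner strand at all. In D. bifasciata 48 of 65 nested members and in D. eugracilis 14 of 27 had no spliced inner line.

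A splice junction belongs to 1 strand, so lines on the opposite strand of the same intron measure how far strand was kept. Over junctions with at least 100 lines, the minor strand held 1.41% of lines for D. pseudoobscura, 0.330% for D. eugracilis and 0.925% for D. bifasciata. In tiles below the limit of 20%, the minor strand held 3.50%, 0.659% and 1.42% of lines. These values had the same order as the number of members and their share with common bases, and their part in either was not tested. Some members nonetheless held a junction with at least 10 lines whose minor strand had at least 20% of them. This was so in 36 of 410 members with a junction in D. pseudoobscura (8.78%, against 1.39% of all tiles with at least 40 lines and a junction), 11 of 294 in D. bifasciata (3.74%, against 0.967%) and 0 of 179 in D. eugracilis (upper bound 2.04%, against 0.296%). Spliced minor-strand lines also count towards the minor share that chose the members, so the distance from these backgrounds is a description.

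Members that lay wholly inside an intron numbered 6 in D. eugracilis (1.42%), 14 in D. bifasciata (1.76%) and 39 in D. pseudoobscura (3.57%), against 2.54%, 3.11% and 3.53% of all tiles with at least 40 lines. Junctions of their own on both strands, each with at least 3 lines, were seen in 25, 42 and 39 members (5.90%, 5.27% and 3.57%). Of these, 13 of 25 in D. eugracilis and 26 of 42 in D. bifasciata were divergent members. The same count was not made over all tiles with at least 40 lines, so whether it is high for members cannot be told.

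The convergent member with most lines in D. eugracilis was NW_024573812.1:9192501-9193000 (assembly ASM1815383v1), with 771 plus and 562 minus lines. To its left 2283 plus and 2 minus lines were counted, and to its right 6 plus and 1221 minus lines. It spans the facing ends of LOC108113323 on the plus strand (9192031 to 9192738) and LOC108113322 on the minus strand (9192727 to 9193978), both protein-coding. The coverage of both strands was shared over 36 bases only, and 2 of the minus lines were spliced. QuantSeq had 2167 plus and 1042 minus reads there, so the 3′ ends of both genes were read in the same tile.

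A second convergent member, NW_024573645.1:2133501-2134000, held 309 plus and 506 minus lines and spanned the overlapping ends of LOC108117507 (plus, 2132346 to 2133770) and LOC108117508 (minus, 2133714 to 2134179). Here 106 of the minus lines were spliced (20.9%) and none of the plus lines, and 58 bases were shared. QuantSeq gave 479 plus and 1011 minus reads. At NW_024573036.1:2744501-2745000 the layout was also convergent, with 221 plus and 755 minus lines, but QuantSeq read it almost wholly from 1 strand, with 3 plus and 7138 minus reads. This tile overlapped a single gene, LOC108111173 on the minus strand, and no base was shared.

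**Figure D3:**
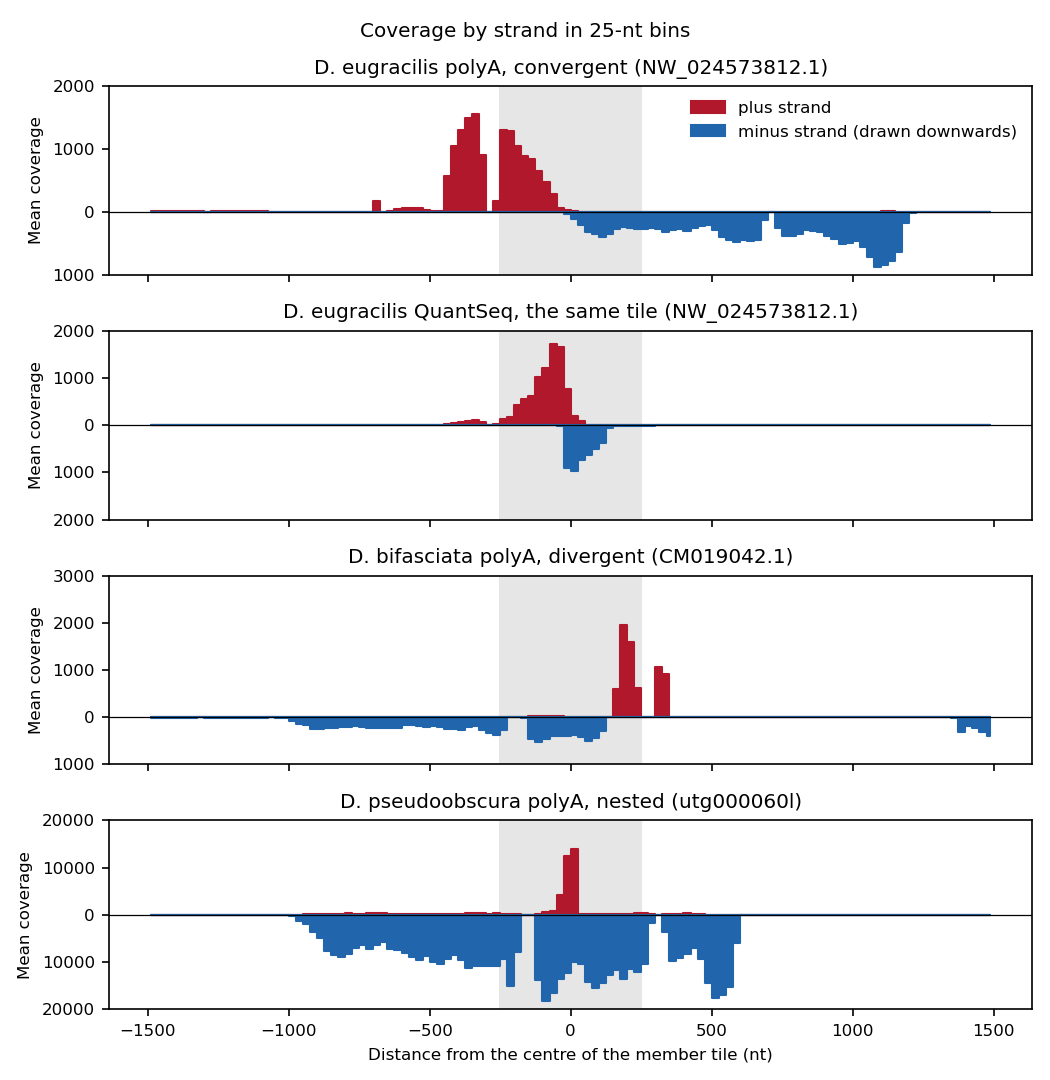
Mean coverage in 25-nt bins (vertical axis, plus strand upwards in red, minus strand downwards in blue) against distance in nt from the centre of the member tile (shaded) for a convergent member of D. eugracilis in the polyA and QuantSeq libraries, a divergent member of D. bifasciata and a nested member of D. pseudoobscura. The convergent strands meet at the centre, the divergent strands leave from it, and in the nested member a narrow plus-strand peak lies within a broad minus-strand unit.

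The divergent members of D. eugracilis named here spanned facing gene starts. NW_024573039.1:1822501-1823000 held 785 plus and 469 minus lines and covered the starts of LOC108105033 on the minus strand (1822141 to 1822806) and LOC108105036 on the plus strand (1822844 to 1826536). Of its plus lines 774 were spliced (98.6%) and of its minus lines 130 (27.7%), and the strands shared no base. QuantSeq had 5 plus and 3 minus reads. NW_024573036.1:541501-542000 held 632 plus and 295 minus lines and covered the starts of LOC108110865 (minus, 540318 to 541664) and LOC108110871 (plus, 541742 to 542497). Splicing was limited to the plus strand there, with 272 lines (43.0%), and QuantSeq had 14 plus reads and no minus read.

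The gene table could be placed on contigs for 14201 of 15386 genes of D. eugracilis (92.3%), which left 410 members on contigs with placed genes. Of these 337 overlapped at least 2 genes (82.2%), against 11.1% of the 27114 tiles with at least 40 lines on the same contigs. A further 70 overlapped 1 gene and 3 none. Where a convergent member overlapped exactly 2 genes of known strand, the genes were tail to tail in 136 of 136 cases. Their spans overlapped in 112 of these, with a median overlap of 54.5 nt over all 136. Of 148 divergent members with such a pair, 145 had the genes head to head, with no overlapping spans and with ends 152 nt apart in the median (6 to 408 nt). Gene strands were read from lines outside the members in the same library, so the match with the layout is a description. None of 32 piRNA pathway genes could be looked up by name in the table.

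QuantSeq, which did not choose the members, also saw both strands in most of the members where it had at least 10 reads. At least 10 QuantSeq reads were found in 241 of 424 members (56.8%, 52.0 to 61.6), against 30.1% of all D. eugracilis tiles with at least 40 polyA lines. The minor QuantSeq strand held 20% or more in 141 of the 241 (58.5%, 52.0 to 64.8). Among all tiles with at least 40 polyA lines and 10 QuantSeq reads the share was 6.29%, and among those with a minor polyA strand below 20% it was 4.78% (4.33 to 5.26). Of all 424 members both strands passed in 33.3%, against 1.89% of all tiles with at least 40 polyA lines. Of 171028 QuantSeq reads in members, 34.4% came from the strand that was minor in the polyA library. The strand with more reads was the same in both libraries in 139 of 239 members with unequal QuantSeq strands.

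Convergent members carried most of this signal. QuantSeq reached at least 10 reads in 153 of 154 convergent members, with a median of 526.5 reads, and both strands passed in 119 of the 153 (77.8%, 70.4 to 84.1). Convergent members held 121641 of the 171028 reads, or 71.1%. Divergent members had a median of 3 reads, 36 of 164 had at least 10, and 8 of the 36 showed both strands. None of the 8 nested members with at least 10 reads had both strands (upper bound 36.9%), whereas 9 of 22 staggered members did. For the position of 3′ ends, reads that ended in the member or in an adjoining tile were taken. Each strand had at least 10 of these reads at 150 convergent members. There the median end of the plus reads lay 31.2 nt beyond that of the minus reads, with quartiles of -22.2 and 75.4 nt. The ends overlapped in 105 of the 150.

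**Figure D4:**
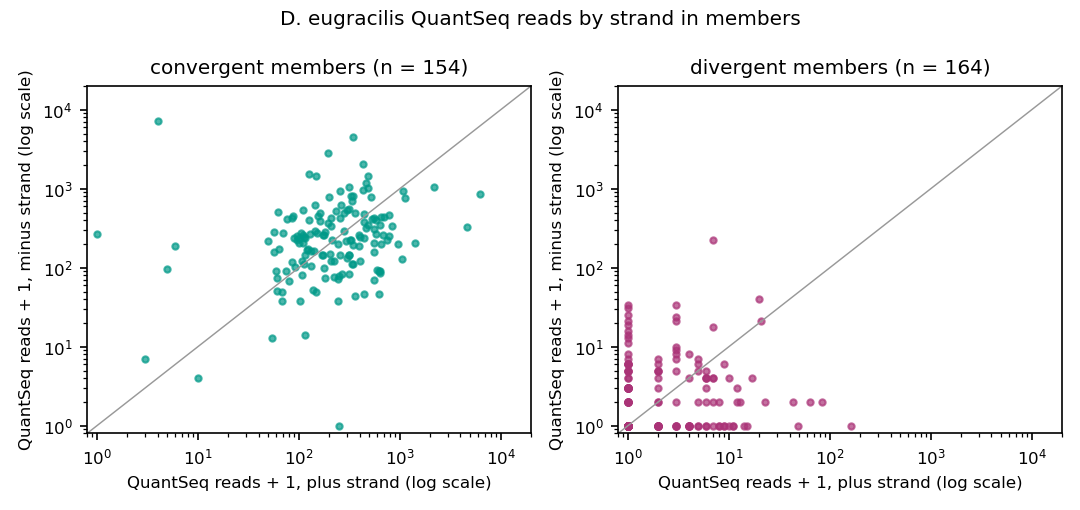
QuantSeq reads plus 1 on the plus strand (horizontal axis) and on the minus strand (vertical axis), both on log scales, in each convergent and each divergent member of D. eugracilis, with the diagonal marking equal strands. Most of the 154 convergent members lie high on both axes, while the 164 divergent members lie near the origin, with a median of 3 reads on both strands together.

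Not every heavily read member was a pair of 3′ ends. The member with most QuantSeq reads, NW_024572964.1:2677501-2678000, was nested and had 114 plus and 35 minus polyA lines, yet 13025 plus and 0 minus QuantSeq reads. Its left neighbour held 44638 plus lines, and the tile covers the end of LOC108108178 (plus, 2675974 to 2677596). Likewise NW_024573046.1:199501-200000 had 73 plus and 292 minus lines with 0 plus and 10721 minus QuantSeq reads, and NW_024573038.1:1070001-1070500, at LOC108108716, had 76 plus and 257 minus lines with 0 plus and 8778 minus reads. In these 3 members the minor polyA strand had no QuantSeq read, and the tile next to each held 10618 lines or more on the strand that QuantSeq read.

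Among nested members of D. eugracilis, NW_024573052.1:1551501-1552000 had 207 plus lines, none spliced, and 55 minus lines, of which 43 were spliced (78.2%). The tile lies inside LOC108102458 (plus, 1549103 to 1553526), but the far ends of the 2 strands reached past each other by 41901.5 nt. With no plus line spliced, this distance came from minus lines that ran to the left well past the gene. Whether they form a transcript was not tested. A single 5′ position held 61.8% of the minus lines. NW_024573224.1:3255501-3256000 lay within LOC108113780 (minus, 3253948 to 3258618), with 52 plus and 177 minus lines, and covers 2 tRNA genes, both named Trnad-guc. The staggered members NW_024572964.1:5260501-5261000 (197 plus and 268 minus lines) and NW_024573038.1:7232501-7233000 (326 and 144) each covered tail-to-tail genes, LOC108108006 with LOC108108010 and LOC108114306 with LOC108114305. QuantSeq gave them 1015 plus and 577 minus reads and 510 plus and 296 minus reads.

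The through layout was rare in D. eugracilis, and 2 of its 4 tiles adjoined each other inside LOC108111617, a protein-coding gene on the plus strand (688964 to 728049). NW_024573057.1:721501-722000 held 131 plus and 86 minus lines and NW_024573057.1:722001-722500 held 51 and 45, with all 500 bases shared in both. Of all these lines 1 was spliced. QuantSeq had 3 plus and 3 minus reads in the first tile and none in the second.

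In D. bifasciata the 2 members with most lines were divergent. CM019042.1:44319001-44319500 held 962 plus and 994 minus lines, of which 855 (88.9%) and 354 (35.6%) were spliced. CM019044.1:36894501-36895000 held 832 plus lines, 823 of them spliced, and 610 minus lines, none of them spliced. The divergent member CM019044.1:698501-699000 showed the opposite, with 955 of 961 minus lines and 1 of 338 plus lines spliced, and CM019043.1:46991501-46992000 was nearly unspliced on both strands (4 of 939 plus and 0 of 402 minus lines). The divergent members named were therefore spliced on both strands, on 1 strand or on neither.

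Convergent members of D. bifasciata were led by CM019043.1:1169001-1169500, with 1006 plus and 377 minus lines. Of the minus lines 210 were spliced (55.7%), no plus line was, and the left neighbour held 13979 plus lines. In CM019044.1:44923001-44923500 the strands were nearly equal by lines, 237 plus and 263 minus, but 77.6% of the plus lines began at a single position, and counting identical alignments once left 66 plus and 127 minus. The 2 nested members with most minor-strand lines were CM019043.1:13002501-13003000 (112 plus and 76 minus lines) and CM019044.1:17936001-17936500 (73 and 178), with no shared base in either. The staggered members CM019043.1:30176001-30176500 (726 and 289 lines) and CM019044.1:17553501-17554000 (285 and 442 lines) had 52 and 11 shared bases, and in the latter 216 plus lines were spliced (75.8%) against no minus line.

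Longer stretches with both strands were concentrated in 1 part of D. bifasciata. Of its 9 stretches of 3 or more tiles, 7 lay on CM019041.1 between 13443501 and 14333500, a region picked out after its values had been seen. In the 2 Mb from 13000001 to 15000000 of this sequence, 73 of 625 tiles with at least 40 lines were members (11.7%), against 2.05% elsewhere. They had a median of 81 lines. The window held 26 of the 34 through members of the species (76.5%), 15 of its 65 nested members and 4 each of its 203 convergent and 314 divergent members. Only 130 of the 8323 lines in these members were spliced (1.56%), compared with 21.8% in the other members of D. bifasciata. Shared bases were found in 63 of the 73.

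The longest stretches, CM019041.1:14305001-14307500 and CM019041.1:14316001-14318500, ran over 5 tiles each. The first held 110 plus and 164 minus lines, none spliced, and the second 233 plus and 230 minus lines, 5 of them spliced. The most heavily read stretch in the window, CM019041.1:13798501-13800000, held 742 plus and 327 minus lines over 3 tiles with 746 shared bases, and its tile from 13799501 to 13800000 held 294 plus and 185 minus lines. Outside this sequence, the stretch CM019044.1:13667001-13668500 held 864 plus and 450 minus lines, and its tile from 13667001 to 13667500 was shared over all 500 bases. Of its plus lines 140 were spliced and of its minus lines 1.

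In D. pseudoobscura 5 stretches reached 3 or more tiles. The longest, utg000063l:2749501-2751500, held 1132 plus and 523 minus lines over 4 tiles, with 279 and 17 of them spliced and 1567 shared bases. The stretch utg000128l:3330001-3331500 held 880 plus and 764 minus lines. On utg000040l, whose name matches the piRNA cluster 40l that the study describes as read from both strands, the stretch from 637001 to 638500 held 652 plus and 222 minus lines, with 11 minus lines and no plus line spliced, and 1197 of its bases were shared. This contig had 11 members among 294 tiles with at least 40 lines (3.74%, 1.88 to 6.60). On utg000003l, whose name matches its cluster 3l, read from 1 strand, there were 13 among 445 (2.92%, 1.56 to 4.94), and both intervals include the 2.78% of the whole library.

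One member outweighed all others in D. pseudoobscura. The tile utg000060l:2448001-2448500 held 70482 lines, 16389 on the plus and 54093 on the minus strand, and was nested within minus-strand tiles of 39435 and 37562 lines. Of the minus lines 17567 were spliced (32.5%) and of the plus lines 209 (1.28%). The 5′ ends of the plus lines (5th to 95th percentile) lay within 58 nt, against 454 nt for the minus lines. With identical alignments counted once, 641 plus and 9967 minus alignments were left. The minor share then fell from 23.3% to 6.04%.

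Such a difference between lines and distinct alignments was frequent in D. pseudoobscura. Alignments with the same start, end, strand and blocks were counted once, which also merges mates of identical coordinates, and whether repeated lines are copies of 1 molecule or separate molecules was not tested. By this measure the median minor share of the members was 23.3% for D. pseudoobscura (28.7% by lines), 34.1% for D. eugracilis (34.2%) and 33.3% for D. bifasciata (33.0%). A minor share of 20% was still reached by 665 of 1092 members (60.9%, 57.9 to 63.8), 396 of 424 (93.4%, 90.6 to 95.6) and 703 of 797 (88.2%, 85.8 to 90.4). Counting anew with the limit of 40 applied to distinct alignments gave 422, 285 and 607 members, so that D. pseudoobscura no longer had the most.

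The layouts parted in this respect. In D. pseudoobscura 172 of 182 divergent (94.5%) and 144 of 161 convergent members (89.4%) kept a minor share of 20%, but 66 of 222 nested (29.7%, 23.8 to 36.2), 97 of 213 one-sided (45.5%) and 151 of 247 staggered members (61.1%) did. In nested members of this species the distinct alignments made up a median of 54.7% of major-strand lines and 32.6% of minor-strand lines, and the 5′ ends spanned 404 and 155 nt. In D. bifasciata, 304 of 314 divergent, 189 of 203 convergent and 35 of 65 nested members kept the share. In D. eugracilis 24 of 27 nested members did. Within the 2 Mb window of D. bifasciata, 69 of 73 members kept it.

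**Figure D5:**
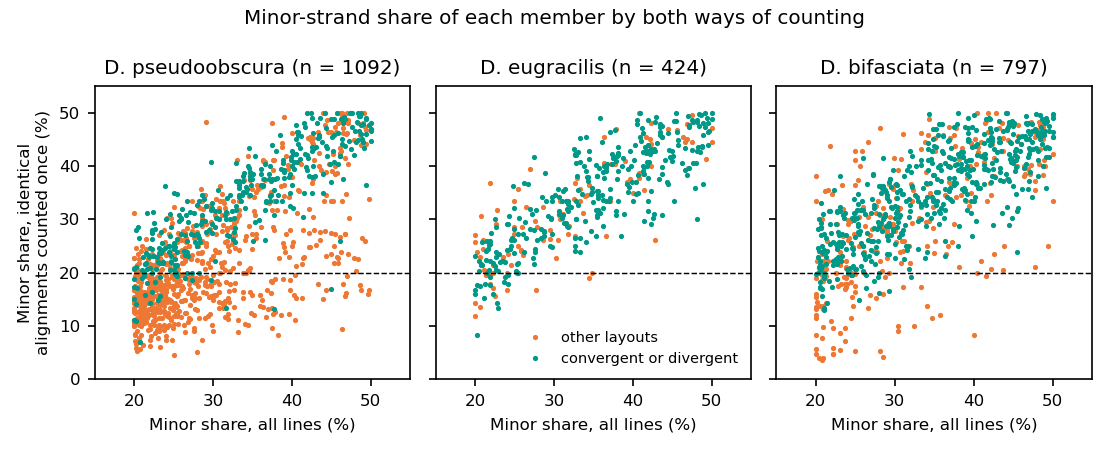
Minor-strand share of each member in % with identical alignments counted once (vertical axis) against the share over all lines (horizontal axis), by species, with the 20% limit dashed and convergent or divergent members in green. In D. pseudoobscura many members of other layouts fall below the dashed line (665 of 1092 members stay at or above it), whereas 396 of 424 stay above in D. eugracilis.

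Several members with many lines in D. pseudoobscura lost most of the count of 1 strand in this way. At utg000092l:3264501-3265000, a staggered member, 1100 plus and 1114 minus lines became 488 and 93. At utg000076l:306501-307000, 1329 plus and 756 minus lines became 653 and 114, with 467 plus lines and no minus line spliced. The nested member utg000197l:158501-159000 changed from 368 plus and 1306 minus lines to 51 and 646, and utg000063l:3038001-3038500, also nested, from 488 and 857 to 66 and 420. The staggered member utg000092l:4339501-4340000, with 810 plus and 786 minus lines, was left with 143 and 407. In the through members utg000001l:10584001-10584500 (363 plus and 550 minus lines) and utg000140l:1106001-1106500 (300 and 714), the plus strand was left with 66 and 46 alignments. In each of these 7 members, the strand with fewer distinct alignments had at most 4 spliced lines. The other strand also had at most 4, except at utg000076l:306501-307000 with its 467.

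The same intron was read on both strands at utg000096l:1851001-1851500. This one-sided member held 1336 plus lines, 322 of them spliced (24.1%), and 411 minus lines, 123 of them spliced (29.9%), and 241 bases were shared. Distinct alignments numbered 642 on the plus and 110 on the minus strand. Among members of D. pseudoobscura with a junction, one read on both strands was found in 16 of 95 one-sided, 7 of 81 nested and 7 of 76 staggered members. In divergent members it was found in 1 of 88, and in convergent ones in 1 of 39.

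The convergent and divergent members of D. pseudoobscura named here held fewer lines. The divergent member utg000133l:108001-108500 held 383 plus and 245 minus lines, with 146 (38.1%) and 143 (58.4%) spliced, and 189 and 122 distinct alignments. The divergent member utg000074l:3854501-3855000 held 228 plus and 393 minus lines, 96 of the former and none of the latter being spliced. The convergent member utg000128l:3329001-3329500 had 137 plus and 147 minus lines and 68 and 73 distinct alignments, with 122 shared bases. At the convergent member utg000184l:14001-14500, by contrast, 230 plus and 281 minus lines became 27 and 133.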

How the data were processed

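Ovary RNA of 3 species was sequenced in 3 directional polyA libraries and 1 QuantSeq library. Per the study's methods and the processing notes, the authors trimmed and quality-filtered the reads, mapped them with STAR 2.7.3a and used SAMtools 1.10 and bedtools 2.28.0. The deposited lists hold genome-unique alignments, 1 line per read, so both mates of a pair count. Their score column, which the authors' aligner set to 255 throughout, was not used as a level. Repeats are seen only through unique stretches. D. eugracilis is named in the description of the D. bifasciata library, whose title was used instead. Lines were counted in Python 3.11.15 with numpy 2.4.6, scipy 1.17.1 and pandas 2.3.3, and figures drawn with matplotlib 3.10.9. The functions that count strands, layouts, splicing and coverage were tested on simulated data. Depth ranged from 6256158 to 14159668 lines.

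Members, lists and thresholds were chosen with earlier results of these data known. Regions named are the 5 members with most lines per species, the 2 with most minor-strand lines in each of 5 layouts, the 3 with most QuantSeq reads, and stretches of 3 or more tiles, the last chosen after their values were seen. Runs of the RefSeq gene table (57 of 267) were assigned to a contig where 90% or more of its junctions (30 or more) lay inside single genes and only 1 contig passed, a rule set after the data were seen. Contig and strand of genes are therefore inferred. The strand of a gene needed at least 10 lines outside members, 80% of them on 1 strand.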

Additional observations from a re-analysis of the deposited data

How the results depend on the processing

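No paired analysis was possible because each group had 1 library. Species are given in the order D. pseudoobscura, D. eugracilis and D. bifasciata, and only values that moved beyond their interval, or counts that moved by over 1.5 times, are printed. With identical alignments counted once, D. pseudoobscura had 422 members, its convergent share was 26.5%, shared bases were found in 40.3%, 26.0% and 30.5%, the major strand was spliced in 14.6%, 23.6% and 22.2% and the minor strand in 16.8%, 19.4% and 17.7%. With each pair counted once, members numbered 689 and 261 in the first 2 species, convergent shares were 12.2%, 31.0% and 20.2%, shared bases were found in 23.4% of D. eugracilis and 31.9% of D. bifasciata members, the major strand was spliced in 16.3%, 26.1% and 23.5% and the minor strand of D. bifasciata in 17.7%. With at least 100 lines there were 580, 218 and 498 members, the convergent share was 7.93% in D. pseudoobscura and 21.5% in D. bifasciata, shared bases were found in 78.3% and 43.4% of these, the major strand was spliced in 17.3%, 23.7% and 24.8% and the minor strand in 6.69%, 18.8% and 16.9%. With a minor share of at least 30%, 502, 277 and 469 members were left, the convergent share of D. pseudoobscura was 17.7% and its share with common bases 60.8%, the major strand was spliced in 12.5%, 23.1% and 25.2% and the minor strand in 10.7%, 19.7% and 17.5%. With tiles of 1000 nt D. eugracilis had 804 members, convergent shares were 17.8% in D. pseudoobscura and 28.5% in D. eugracilis, shared bases were found in 53.0% and 21.3% of these, the major strand was spliced in 16.0%, 24.8% and 21.0% and the minor strand in 13.5%, 23.4% and 19.3%. With the grid shifted by 250 nt, the major strand was spliced in 15.6%, 21.9% and 19.3% and the minor strand in 6.56%, 23.3% and 15.5%. Requiring 20 lines and 20% for presence made the convergent share of D. pseudoobscura 21.5%. Requiring 20% of the coverage for a shared base gave 65.2% in D. pseudoobscura and 42.2% in D. bifasciata. QuantSeq showed both strands in 67.2% of members with at least 40 reads and in 68.2% with identical QuantSeq alignments counted once. Without the member with most lines (a setting added after seeing the data) the major strand was spliced in 11.4% in D. pseudoobscura and 22.9% in D. eugracilis, and the minor strand in 8.80% in D. pseudoobscura and 14.8% in D. bifasciata. Under these settings 43 other values stayed within their limits, among them those without members that hold a junction read on both strands, also added then. Minor shares of the named members moved in 26 cases and stayed in 52, and 9 of the 39 named members fell below 20% with identical alignments counted once, as did 2 with each pair counted once. The cause of these shifts was not tested.

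Intervals cover counting error alone and treat lines as independent, which mates and repeated alignments are not. Minor strands of members with 40 lines rest on as few as 8 lines. Alignments with several places in the genome were not in the lists.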
